A study of Mus musculus with 6 samples.

Results

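The cytosolic ribosomal protein genes code for the proteins of the ribosomes that translate nuclear mRNAs. They were chosen by symbol, as Rpl (large subunit) or Rps (small subunit) and a number with at most 1 added letter a, x or l, together with Rplp0, Rplp1, Rplp2 and Rpsa. This gave 81 of the 24015 genes in the count tables, 49 of the large and 32 of the small subunit. RNA-Seq compared sciatic nerves of mice at postnatal day 14, with 3 control libraries (Rnf40 fl/fl without Cre) and 3 Rnf40ΔSC libraries (Rnf40 fl/fl with the Dhh::Cre transgene, which recombines in the Schwann cell lineage). The labels give both genotypes a mixed 129SvJ/C57Bl/6J background, while the methods name C3H instead of 129SvJ. Each library was made from total RNA of 3 pooled nerves, in which cells other than Schwann cells keep Rnf40. P-values therefore measure the spread between these pools. Library totals were 1317167, 1992622 and 2468765 counts in control replicates 1, 2 and 3 and 2184268, 1459387 and 2186710 counts in Rnf40ΔSC replicates 1, 2 and 3.

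Ribosomal subunits are assembled in the nucleolus from ribosomal RNA and a set of proteins, most of which are needed in equal amounts. The mRNAs of these proteins begin with a terminal oligopyrimidine (TOP) tract through which mTORC1 and Larp1 adjust their translation, and mTORC1 also governs growth and myelin production of Schwann cells. Ribosomal protein mRNAs have been copied back into mammalian genomes many times as processed pseudogenes, so that a short read from such an mRNA often matches several places.

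Rnf40, the E3 ligase subunit that was deleted, had normalized counts (counts divided by library total and by edgeR's TMM factor, which corrects for composition, and brought to the mean library) of 130.2, 126 and 142 in control libraries 1, 2 and 3 and 90.2, 90.4 and 94.2 in Rnf40ΔSC libraries 1, 2 and 3. Every Rnf40ΔSC library was below every control library, with a log2 fold change (Rnf40ΔSC over control) of -0.54 ± 0.14 (SE) and an adjusted p of 0.00243 (edgeR's quasi-likelihood test, adjusted by Benjamini-Hochberg). With counts scaled by library totals alone the log2 fold change was -0.27 and the call was lost (adjusted p = 0.116 from the same edgeR test, Benjamini-Hochberg, over a range of 0.000352 to 0.116 across alternatives). The counts cover the whole gene, of which Cre removes exons 3 and 4, and cells outside the Schwann cell lineage contribute reads. Rnf20, its partner in the ligase, had normalized counts of 127, 127 and 112 in control and 176, 184 and 137 in Rnf40ΔSC libraries and was higher (log2 fold change 0.44 ± 0.13 (SE), adjusted p = 0.00997, edgeR's quasi-likelihood test, Benjamini-Hochberg). The Rnf20 call was lost without control library 3 (adjusted p = 0.0869 in edgeR's test with Benjamini-Hochberg) or Rnf40ΔSC library 1 (0.0569) and under scaling by the summed counts of the ribosomal protein genes (range 6.03e-05 to 0.260 over the alternatives).

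Counts of cell-type markers differed with genotype. Of 8 Schwann cell markers tested, 6 were lower and 2 higher in Rnf40ΔSC nerves. Prx, a scaffold protein of myelinating Schwann cells, had raw counts of 7360, 11342 and 13914 in control and 4826, 3211 and 5110 in Rnf40ΔSC libraries (log2 fold change -1.59 ± 0.07 (SE), adjusted p = 5.51e-20, edgeR's quasi-likelihood test, Benjamini-Hochberg). Under total counts 6 of the Schwann cell markers were lower and 2 higher as well. Of 8 fibroblast markers, 7 were lower under TMM, and 4 were lower and 1 higher under total counts (all genes, 16.2% lower under TMM, and 7.79% lower and 32.9% higher under total counts). Their summed normalized counts, led by Col3a1, were 78157, 76719 and 82703 in control and 60652, 58425 and 57461 in Rnf40ΔSC libraries. Whole-nerve RNA cannot tell apart fewer cells of a type and less RNA per cell. By staining at this age, the paper reports a comparable share of Schwann cells in both genotypes and more macrophages in Rnf40ΔSC nerves. Rnf40ΔSC library 3 stood apart from the other Rnf40ΔSC libraries by its skeletal muscle RNA. The summed normalized counts of 15 muscle markers, with Myh4 as the most abundant, were 9421, 7173 and 5359 in control and 227, 553 and 6657 in Rnf40ΔSC libraries. Of the 14 muscle markers tested, 0 were called by edgeR or DESeq2 and 0 reached an unadjusted p of 0.05, whereas 13 were lower in edgeR once Rnf40ΔSC library 3 was left out. Over all genes, 1975 were lower in that fit, against 1841 with all libraries. Rn45s, the ribosomal RNA precursor, took 2.21, 2.32 and 1.95% in control libraries 1, 2 and 3 and 5.41, 2.95 and 2.59% in Rnf40ΔSC libraries 1, 2 and 3 of the counts, and it was highest in Rnf40ΔSC library 1. The part of cell composition and of ribosomal RNA in the values of ribosomal protein genes was not tested.

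Few reads were counted on the ribosomal protein genes. They took 0.276, 0.254 and 0.270% in control libraries 1, 2 and 3 and 0.368, 0.406 and 0.341% in Rnf40ΔSC libraries 1, 2 and 3 of all counts (mean 0.267 ± 0.0114%, SD, n = 3, against 0.372 ± 0.0327%, SD, n = 3). The groups did not overlap, and Rnf40ΔSC library 2 had the largest share. In 23 of the 81 genes no library had more than 3 counts, and 4 genes (Rpl10l, Rpl23a, Rpl26 and Rps29) had 0 counts in all 6 libraries. Among other abundant housekeeping mRNAs, chosen after their values were seen, some were as scarce and some were not. Gapdh, the glycolytic enzyme, had raw counts of 1, 2 and 2 in control and 0, 1 and 4 in Rnf40ΔSC libraries, and Ppia, the cyclophilin, had raw counts of 0, 1 and 1 in control and 3, 0 and 0 in Rnf40ΔSC libraries. None of the coding windows of these 2 genes (50 bases, described below) was at 1 place. Actb, with 80.4% of its windows at 1 place, had 2758 to 6177 counts per library, and the elongation factor gene Eef1a1, with 25.4%, had 397 to 781. A filter on low counts (at least 4.79 CPM in 3 libraries) kept 41 of the 81 genes, 24 of the large and 17 of the small subunit, among 11371 genes tested. Of these 41, 33 passed the minimum in all 6 libraries. Rpl18, Rpl31, Rpl7a, Rps21, Rps24, Rps4l and Rps6 passed in all Rnf40ΔSC libraries but not in all control libraries. Rpl3l passed in all control libraries but not in all Rnf40ΔSC libraries. Of these 8, Rpl31, Rps24 and Rps4l were called.

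**Figure D1:**
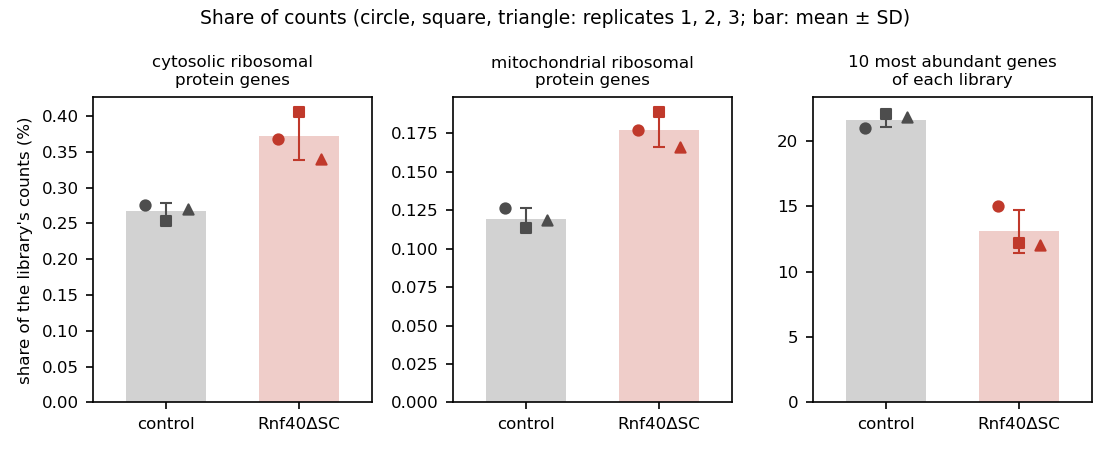
Share of each library's counts on the ribosomal protein genes, on the mitochondrial ribosomal protein genes and on the 10 most abundant genes, in percent, with symbols for the 3 replicates of each genotype and bars for the mean and SD. The ribosomal protein share lay between 0.254 and 0.276% in control and between 0.341 and 0.406% in Rnf40ΔSC libraries, while the 10 most abundant genes took more of the control libraries.

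The shares depend on what else was counted. The 10 most abundant genes took 21.0, 22.1 and 21.8% in control libraries 1, 2 and 3 and 15.0, 12.2 and 12.0% in Rnf40ΔSC libraries 1, 2 and 3 of the counts. Without these 10 genes the ribosomal protein share was 0.340 ± 0.0125% in control and 0.428 ± 0.0380% in Rnf40ΔSC libraries (SD, n = 3). The groups were closer but still apart. With every gene past the study's own limits removed, it was 0.340 ± 0.00910% and 0.393 ± 0.0324% (SD, n = 3). Those genes were picked by their difference between the genotypes and include 5 ribosomal protein genes, all higher, so this share is not independent of the comparison. The mitochondrial ribosomal protein genes, whose products serve the separate ribosomes of mitochondria, also took a larger share of the Rnf40ΔSC libraries, with 0.127, 0.113 and 0.119% in control libraries 1, 2 and 3 and 0.177, 0.189 and 0.166% in Rnf40ΔSC libraries 1, 2 and 3.

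The authors counted reads that map to a single place, so each coding sequence was cut into all windows of 50 bases and each window was looked up on both strands of mm9 (NCBIM37, with GENCODE vM1 transcripts). The RNA-Seq read length was not given in the sources used here. Over the 80 ribosomal protein genes with a coding sequence in this annotation, the median gene had 9.68% of its windows at exactly 1 place, whereas the median of 19205 genes was 100%. The typical gene had 10 further copies in the genome (median; matches over 80% of the coding sequence at 90% identity), and Rpl7a had the most, 85. In 62 genes no window lacked a second place within 2 differences. The windows shown here, from a gene with 0 counts (Rpl23a) and from the gene with the most copies (Rpl7a), are coding bases that a read of that length cannot assign. Rpl23a, a docking site for nascent-chain factors at the exit of the peptide tunnel, is shown at chr11:77995006-77995055, minus strand, exon 3, and its window lies at 19 places. Rpl7a, on the outer face of the large subunit, is shown at chr2:26767899-26767948, plus strand, exon 5, at 45 places.
Rpl23a: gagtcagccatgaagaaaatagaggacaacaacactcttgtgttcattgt
Rpl7a: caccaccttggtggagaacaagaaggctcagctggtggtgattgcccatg

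Rpl8, in contrast, had no copy. It lies near the catalytic centre of the large subunit, and 91.2% of its windows were at 1 place. The window shown, from mm9 at chr15:76735298-76735347, plus strand, exon 4, matches no other place.
Rpl8: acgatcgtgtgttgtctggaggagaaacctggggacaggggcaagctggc
Rpl8, named after its values were seen, had steady counts. Its normalized counts were 302, 256 and 285 in control and 319, 306 and 284 in Rnf40ΔSC libraries. The groups overlapped, with a log2 fold change of 0.11 ± 0.10 (SE), and it was not called (adjusted p = 0.435, edgeR's quasi-likelihood test, adjusted by Benjamini-Hochberg). Under total-count scaling it was called higher, at 0.38 (adjusted p = 0.00372 from edgeR's test, Benjamini-Hochberg; range 0.00372 to 0.802), with a shift of the median of all genes of 0.267 under that scaling.

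**Figure D2:**
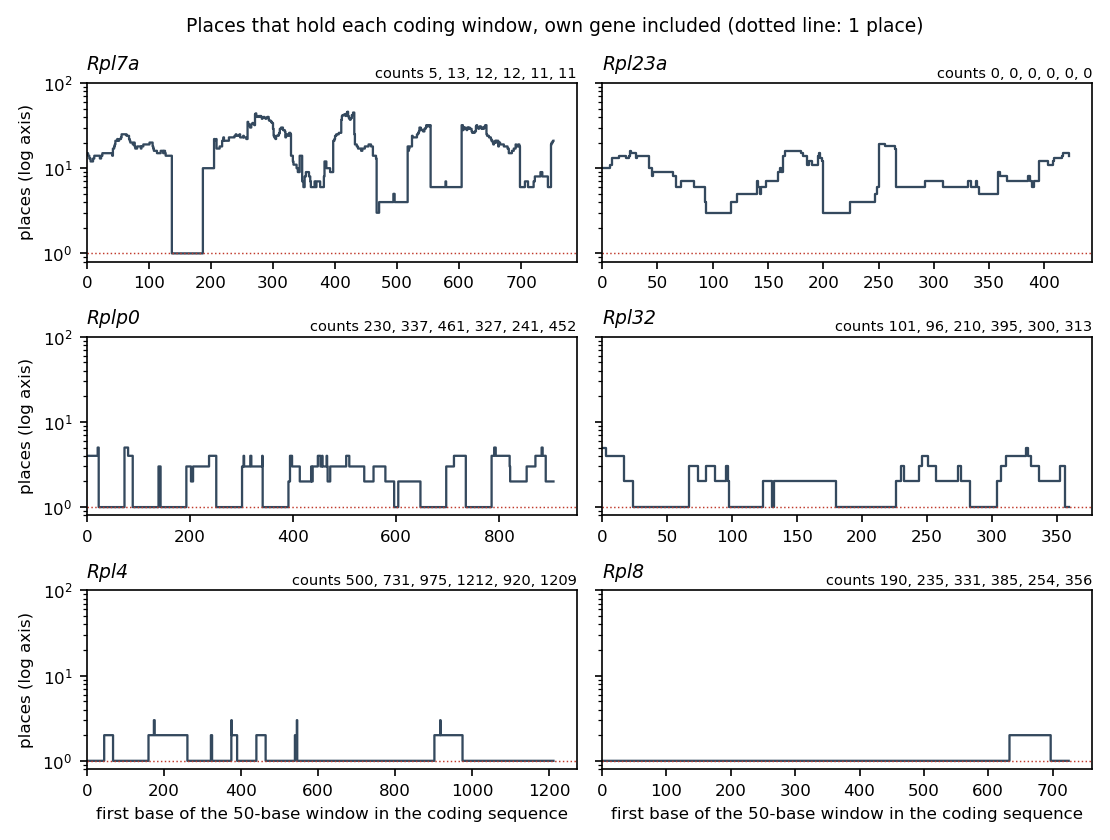
Number of places in mm9 that hold each 50-base window along the coding sequence of 6 ribosomal protein genes, on a log axis, against the position of its first base, with the counts of the 3 control and then the 3 Rnf40ΔSC libraries above each panel. All 422 windows of Rpl23a lay at more than 1 place, and 661 of the 725 windows of Rpl8 lay at exactly 1.

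Levels differed with the share of windows at 1 place, though not in steady steps. In 29 genes no coding window was at 1 place, and 16 of these had at most 3 counts in every library and 6 were tested. In 15 genes at least 50% of the windows were, and 13 of these were tested. Median levels, as normalized counts per kilobase of coding sequence, were 2.86 in the former and 148 in the latter. Between them they were 21.4 in 29 genes with above 0 and under 25% of windows at 1 place and 529 in 7 genes with 25 to under 50%, so the highest median was not in the genes with the most such windows. Across the 80 genes, Spearman's rho between level per kilobase and share of windows at 1 place was 0.57, and it was -0.31 between level and number of copies. These are descriptions across genes, which are not independent replicates, share the 6 libraries and have coding length in both measures. With windows of 36 or 100 bases the first rho was 0.55 and 0.57. Rpl5, Rpl13, Rpl15, Rpl27a, Rpl31 and Rps6 were tested although none of their coding windows was at 1 place. Their transcripts hold windows at 1 place in untranslated parts (in Rpl5, 51.3% of all transcript windows). The part of shared sequence in the low counts was not tested.

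**Figure D3:**
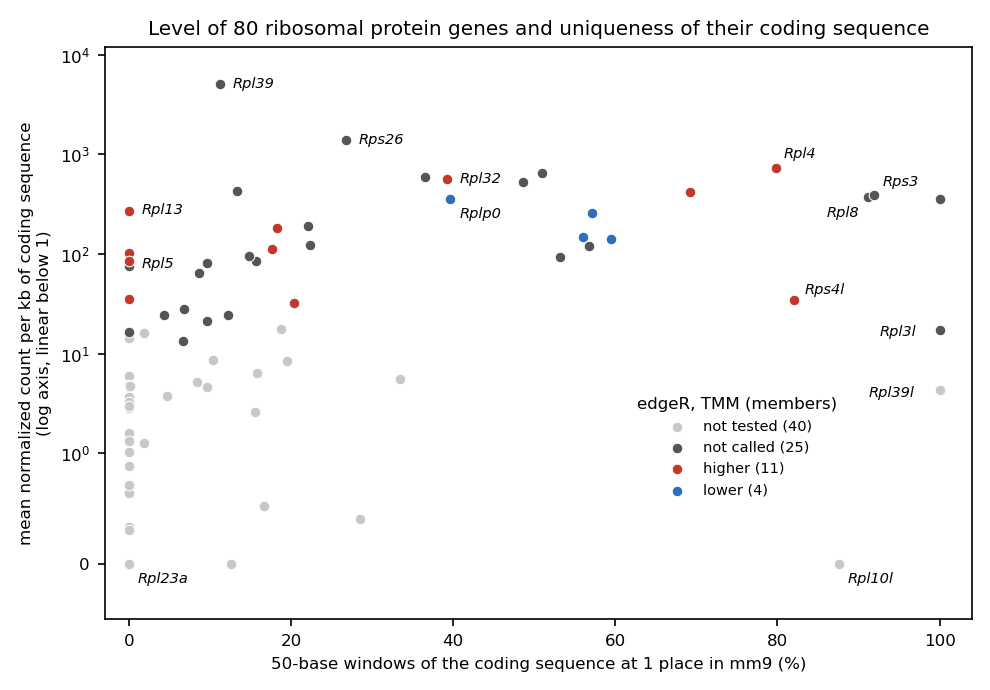
Mean normalized count per kilobase of coding sequence over the 6 libraries (log axis, linear below 1) against the percent of 50-base coding windows at 1 place in mm9, with 1 point for each of 80 ribosomal protein genes, coloured by the edgeR call under TMM scaling. Genes with 0% of windows at 1 place reached at most 268 counts per kilobase, and genes without a test gathered at the lower left.

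The comparison of the genotypes asks how the mRNAs of the translation machinery differed in nerves whose Schwann cells had lost Rnf40. Under TMM scaling 11 of the 41 genes tested were higher and 4 lower at an adjusted p of at most 0.05 (edgeR's quasi-likelihood test, adjusted by Benjamini-Hochberg), against 15.5% of all 11371 genes tested higher and 16.2% lower. The 11 are 26.8% and the 4 are 9.76% of the 41. Of the 11, Rpl31, Rps24 and Rps4l passed the filter minimum in all Rnf40ΔSC libraries but not in all control libraries. Among the 33 genes that passed the minimum in all 6 libraries, a set chosen after seeing the data, 8 were higher (24.2%) and 4 lower (12.1%), against 15.1% and 17.6% of 9824 such genes overall. The median log2 fold change was 0.11 under TMM, against -0.0024 over all genes, and it was 0.38 under total-count scaling (all genes, 0.264). When libraries were scaled by the summed counts of these genes, which centres the genes themselves, it was -0.09 (all genes, -0.204). In 10 genes every Rnf40ΔSC library was above every control library (22.0% of all genes), and in 5 every one was below (21.6%). The number of higher genes was 7 without Rnf40ΔSC library 1 and 15 without Rnf40ΔSC library 3. Over all genes, 1895 were higher without Rnf40ΔSC library 3, against 1757 with all libraries. The number of lower genes was 2 without control library 3 or without Rnf40ΔSC library 1. For the fits without control library 3 or Rnf40ΔSC library 1, numbers over all genes are not given here. The study's limits were a log2 fold change of 0.8 or more in size and a mean normalized count from 20 up, used there with DESeq2. They were applied here to edgeR's calls under TMM at an adjusted p of at most 0.05. Past them were Rpl32, Rpl35a, Rpl37a, Rpl5 and Rps4l, all 5 of them higher, against 3.73% of all genes past them upward and 5.05% downward. The number of ribosomal protein genes past them was 9 without Rnf40ΔSC library 3, a fit for which the number of all genes past them is not given here.

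Scaling moved these numbers. With library totals alone, 19 of the 41 genes were higher, among 32.9% of all genes, and 0 were lower, among 7.79% (edgeR's quasi-likelihood test, adjusted by Benjamini-Hochberg). At an unadjusted p of 0.05, 2 were lower under that scaling, and DESeq2 with its own size factors called 2 lower. All 11 genes that were higher under TMM were also higher under total counts. Over all genes, lower calls were 51.2% of the calls under TMM and 19.2% under total counts. When the libraries were scaled by the summed counts of the ribosomal protein genes, 7 were higher and 5 lower (all genes, 6.48% and 23.8%). DESeq2 called 9 higher and 2 lower (all genes, 10.3% and 11.3%). Large and small subunit genes did not have the same values. Of the large subunit, 9 of 24 genes tested were higher and 2 lower with a median log2 fold change of 0.25, and of the small subunit 2 of 17 were higher and 2 lower with a median of 0.05 (all genes, 15.5% higher and 16.2% lower). The 2 higher small subunit genes, Rps24 and Rps4l, passed the filter minimum in all Rnf40ΔSC libraries, where they were high, but not in all control libraries. So did Rpl31 among the 9 of the large subunit. Under total counts 12 of the large and 7 of the small subunit were higher (32.9% of all genes), and all lower calls were lost. Among the genes higher under total counts, Rpl18, Rpl31, Rps21, Rps24 and Rps4l entered the test in that way. The medians under that scaling were 0.51 and 0.31, and under scaling by the genes' own sum 0.04 and -0.16 (all genes, -0.204). The difference between the subunits was not tested.

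**Figure D4:**
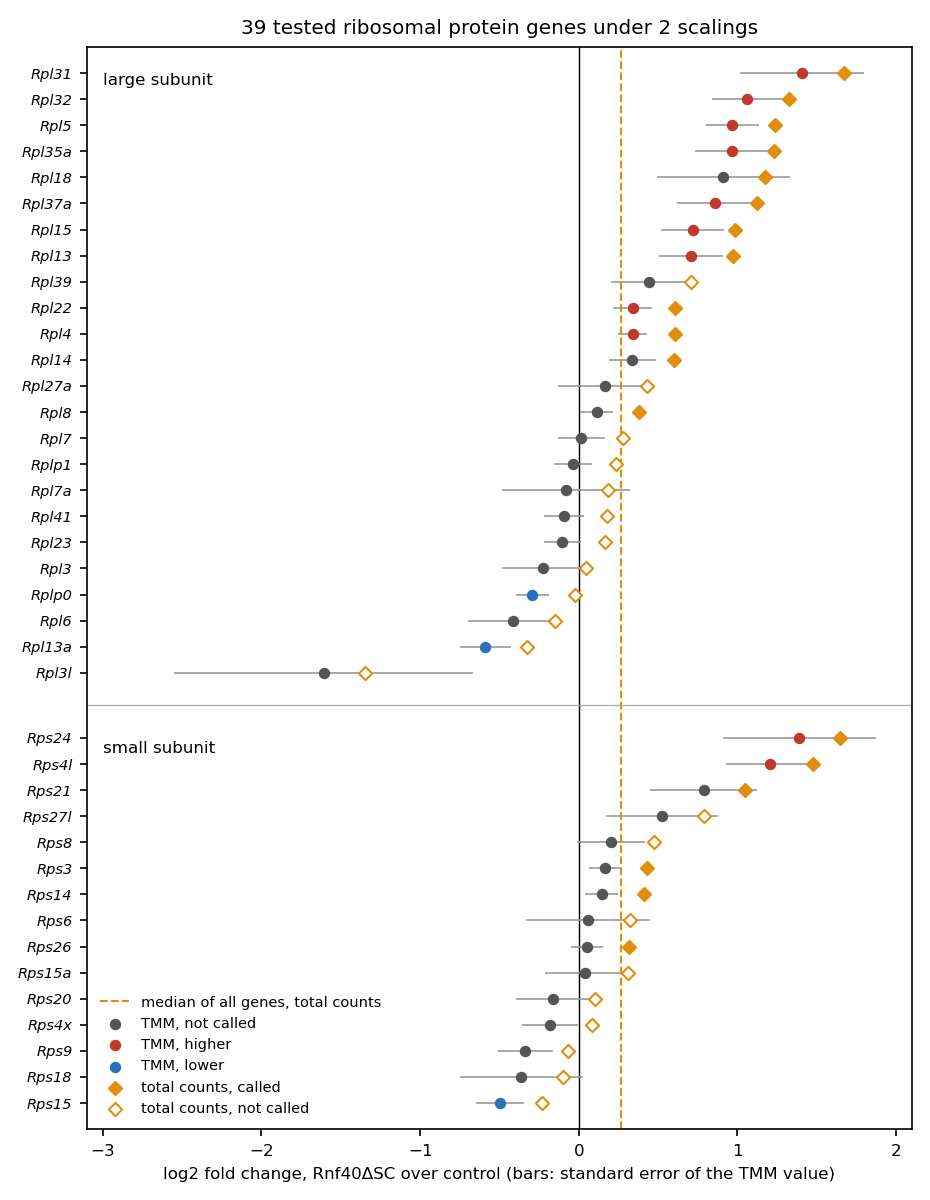
Log2 fold change of Rnf40ΔSC over control for 39 of the 41 ribosomal protein genes tested, by subunit, with circles and standard-error bars for TMM and diamonds for total-count scaling, and a dashed line at the median of all genes under total counts. Of the genes shown, 11 were higher and 3 lower under TMM, and under total counts 18 were higher and the 3 lower calls were lost.

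The ribosomal stalk recruits the GTPase factors that drive elongation. Rplp0 anchors the stalk on the large subunit. It is shown because its coding sequence is partly shared with copies. The window at chr5:116010808-116010857, plus strand, exon 3 of mm9 differs from its nearest copy (chr2:152179463-152179512, plus strand, in the pseudogene Gm14165) by the base in capitals. Here and below, nearest copy means the closest match of the window shown, not of the whole gene.
Rplp0: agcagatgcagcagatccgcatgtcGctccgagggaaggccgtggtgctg
nearest copy of Rplp0: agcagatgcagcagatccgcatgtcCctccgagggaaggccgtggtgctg
Of the coding windows of Rplp0, 39.6% were at 1 place. Its normalized counts were 365, 367 and 397 in control and 271, 291 and 361 in Rnf40ΔSC libraries. The Rnf40ΔSC libraries lay below the control libraries, but Rnf40ΔSC library 3 nearly reached them. The log2 fold change was -0.29 ± 0.11 (SE) (adjusted p = 0.0310, edgeR's quasi-likelihood test, Benjamini-Hochberg). The call was lost without control library 2 (adjusted p = 0.0587 in edgeR's test with Benjamini-Hochberg), control library 3 (0.161), Rnf40ΔSC library 1 (0.242) or Rnf40ΔSC library 2 (0.100), by DESeq2 (0.102), and under total counts (0.883), where the groups overlapped and the log2 fold change was -0.02. The adjusted p ran from 0.000909 to 0.883 over all alternatives of edgeR's test and DESeq2 (Benjamini-Hochberg). Rplp1, an acidic protein that hangs from Rplp0 as a dimer with Rplp2, had normalized counts of 206, 236 and 187 in control and 212, 169 and 227 in Rnf40ΔSC libraries. Its groups overlapped, and with a log2 fold change of -0.03 ± 0.12 (SE) it was not called (adjusted p = 0.855, edgeR's quasi-likelihood test, Benjamini-Hochberg). Rplp2 had raw counts of 3, 2 and 2 in control and 0, 1 and 2 in Rnf40ΔSC libraries and was not tested.

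Rpl5 and Rpl11 join the ribosomal RNA of the large subunit's central protuberance and, when ribosome assembly is disturbed, bind the p53 inhibitor Mdm2. Rpl5 had normalized counts of 54.0, 49.0 and 49.9 in control and 103, 107 and 88.6 in Rnf40ΔSC libraries. Every Rnf40ΔSC library was well above the control range. Means were 51.0 ± 2.65 in control and 99.8 ± 9.90 in Rnf40ΔSC nerves (SD, n = 3 each), a 1.96-fold difference (log2 fold change 0.97 ± 0.17 (SE), adjusted p = 2.34e-05, edgeR's quasi-likelihood test, adjusted by Benjamini-Hochberg). The call held under every alternative that was run, with a log2 fold change between 0.76 and 1.23. Rpl11 had raw counts of 3, 1 and 0 in control and 8, 2 and 0 in Rnf40ΔSC libraries, too few to test, and none of its coding windows was at 1 place. Among 13 p53 target genes tested, 1 was higher and 2 were lower, with a median log2 fold change of -0.0085 (all genes, 15.5% higher and 16.2% lower). Under total counts 5 were higher and 1 lower, with a median of 0.258 (all genes, 32.9% and 7.79%). Plk2, a kinase that p53 induces, was higher (log2 fold change 1.15 ± 0.11 (SE), adjusted p = 9.82e-11), while the cyclin Ccng1 was lower (-0.60 ± 0.11 (SE), adjusted p = 5.43e-05, both in edgeR's quasi-likelihood test, Benjamini-Hochberg). Without Rnf40ΔSC library 2, 2 of the p53 targets were higher and 1 was lower. The part of p53 in these values was not tested.

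Proteins at the exit of the peptide tunnel meet the nascent chain first. Of 7 such genes, Rpl31 and Rpl39 were tested. Rpl31 had raw counts of 2, 8 and 10 in control and 23, 18 and 23 in Rnf40ΔSC libraries. The counts were low, but the groups did not overlap in normalized counts. Its log2 fold change was 1.41 ± 0.39 (SE) (adjusted p = 0.00512, edgeR's quasi-likelihood test, Benjamini-Hochberg). Rpl31 entered the test through the Rnf40ΔSC libraries alone, in which it was high, and without the filter on low counts it was also called (0.00416, edgeR's test, Benjamini-Hochberg). Rpl39, the smallest of these proteins, had the highest level per kilobase of coding sequence (5125). That scale divides counts on the whole gene by its short coding sequence, which is 156 of 612 transcript bases. Where the reads fell within the transcript was not measured. Normalized counts of Rpl39 were 681, 693 and 656 in control and 894, 1215 and 657 in Rnf40ΔSC libraries. Rnf40ΔSC library 3 sat within the control range and the others above it. Rpl39 was not called (log2 fold change 0.44 ± 0.24 (SE), adjusted p = 0.241, edgeR's quasi-likelihood test, Benjamini-Hochberg), but it was called without Rnf40ΔSC library 3 (1.27e-06), without the filter on low counts (0.00202) and with the replicate number as a block (0.0123), within a range of 1.27e-06 to 0.409 over the alternatives.

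Among the other large subunit genes, Rpl32, a protein of the subunit's outer surface, had the largest difference in counts per library of those past the limits. The window at chr6:115757826-115757875, minus strand, exon 2 of mm9 differs by the base in capitals from its closest match elsewhere. That match lies within Mtap7 (chr10:19928336-19928385, plus strand).
Rpl32: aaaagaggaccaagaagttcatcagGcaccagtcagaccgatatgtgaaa
nearest copy of Rpl32: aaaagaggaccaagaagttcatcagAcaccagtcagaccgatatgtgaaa
Of the coding windows of Rpl32, 39.3% were at 1 place. Normalized counts were 160.4, 105 and 181 in control and 327, 362 and 249.8 in Rnf40ΔSC libraries. The lowest Rnf40ΔSC library exceeded the highest control library. The log2 fold change was 1.06 ± 0.22 (SE), a 2.08-fold difference (adjusted p = 0.00831, edgeR's quasi-likelihood test, Benjamini-Hochberg). The Rpl32 call was lost with the replicate number as a block (adjusted p = 0.118 in edgeR's test with Benjamini-Hochberg, in a range of 1.07e-17 to 0.118), and it held without each library in turn. Rpl35a, mutated in some patients with Diamond-Blackfan anaemia, had normalized counts of 22.2, 22.9 and 29.3 in control and 55.5, 53.05 and 40.7 in Rnf40ΔSC libraries. The groups did not overlap (log2 fold change 0.97 ± 0.23 (SE), adjusted p = 0.00139, edgeR's quasi-likelihood test, Benjamini-Hochberg), although the gene has 28 copies and 17.6% of its coding windows were at 1 place. Rpl37a, a zinc-binding protein, had normalized counts of 30.2, 35.95 and 38.7 in control and 76.2, 83.2 and 38.3 in Rnf40ΔSC libraries. Rnf40ΔSC library 3 was within the control range while the other Rnf40ΔSC libraries lay far above it. Rpl37a was called (log2 fold change 0.86 ± 0.24 (SE), adjusted p = 0.00793, edgeR's quasi-likelihood test, Benjamini-Hochberg), but not without Rnf40ΔSC library 1 (adjusted p = 0.0625 in edgeR's test with Benjamini-Hochberg), within a range of 1.27e-05 to 0.0625.

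Rpl4, which lines the peptide tunnel, was among the most abundant, and most of its coding sequence (79.8% of windows) was at 1 place. A window at chr9:64022646-64022695, plus strand, exon 2 of mm9 is shown beside its nearest copy, which lies outside annotated genes (chr1:144991116-144991165, minus strand), with the differing base in capitals.
Rpl4: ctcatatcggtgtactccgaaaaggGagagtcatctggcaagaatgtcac
nearest copy of Rpl4: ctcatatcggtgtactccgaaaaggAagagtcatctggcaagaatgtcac
Normalized counts of Rpl4 were 794, 796 and 839 in control and 1004, 1109 and 965 in Rnf40ΔSC libraries. The spread within each group was small and the groups were apart. Rpl4 was 1.26-fold higher (log2 fold change 0.34 ± 0.09 (SE), adjusted p = 0.00313, edgeR's quasi-likelihood test, Benjamini-Hochberg), and this was lost when the libraries were scaled by the summed counts of the ribosomal protein genes (0.431; range 1.29e-06 to 0.431). The remaining higher genes, named after their values were seen, were Rpl13, Rpl15 and Rpl22. Rpl13, a surface protein of the large subunit, had normalized counts of 138, 132 and 117 in control and 238, 253 and 143 in Rnf40ΔSC libraries, and Rnf40ΔSC library 3 was close to the control libraries. Its log2 fold change was 0.71 ± 0.20 (SE) (adjusted p = 0.0212, edgeR's quasi-likelihood test, Benjamini-Hochberg), and the call was lost without control library 1 (adjusted p = 0.0709 in edgeR's test with Benjamini-Hochberg), control library 2 (0.0930), control library 3 (0.0932) or Rnf40ΔSC library 1 (0.0539), within a range of 1.40e-08 to 0.0932. Rpl15, which lies within the RNA core of the subunit, had normalized counts of 31.8, 52.3 and 53.4 in control and 82.0, 92.8 and 61.4 in Rnf40ΔSC libraries. The groups were apart, with a log2 fold change of 0.72 ± 0.20 (SE) (adjusted p = 0.00511, edgeR's quasi-likelihood test, Benjamini-Hochberg), and scaling by the genes' own sum ended the call (0.0594; range 0.000140 to 0.0594). Rpl22, a protein whose loss mice survive, had normalized counts of 162, 133 and 141 in control and 188, 193 and 168 in Rnf40ΔSC libraries. The log2 fold change of 0.34 ± 0.12 (SE) was called (adjusted p = 0.0293, edgeR's quasi-likelihood test, Benjamini-Hochberg), but not without control library 2 (adjusted p = 0.138 in edgeR's test with Benjamini-Hochberg), control library 3 (0.112), Rnf40ΔSC library 1 (0.0872) or Rnf40ΔSC library 2 (0.0807), nor by DESeq2 (0.106), nor under scaling by the genes' own sum, where the log2 fold change was 0.13 (0.522), within a range of 0.000156 to 0.522.

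Rpl13a was lower, and it also has a role outside the ribosome in silencing inflammatory mRNAs. Its normalized counts were 106, 99.1 and 107 in control and 80.3, 65.1 and 61.4 in Rnf40ΔSC libraries. The control libraries were close together and the Rnf40ΔSC libraries below all of them (log2 fold change -0.59 ± 0.16 (SE), adjusted p = 0.00394, edgeR's quasi-likelihood test, Benjamini-Hochberg). Under total counts it had a log2 fold change of -0.32 and was not called (0.100, edgeR's test, Benjamini-Hochberg; range 0.000452 to 0.100). Rpl6, a large subunit protein with long extensions, and Rpl18, whose gene has 5 copies, were not called. Rpl6 had a log2 fold change of -0.42 ± 0.28 (SE) (adjusted p = 0.273) and Rpl18 of 0.91 ± 0.42 (SE) (adjusted p = 0.0944, both in edgeR's quasi-likelihood test, Benjamini-Hochberg). Rpl18 passed the filter minimum in all Rnf40ΔSC libraries but not in all control libraries. It was called higher under total counts (adjusted p = 0.0230 in edgeR's test with Benjamini-Hochberg) and without Rnf40ΔSC library 2 (0.0404). Without Rnf40ΔSC library 1 its log2 fold change was 0.48 (0.525; range 0.0230 to 0.525, edgeR's test, Benjamini-Hochberg).

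Of 14 genes for proteins in the head of the small subunit, 5 were tested and 1 was lower under TMM (16.2% of all genes), while under total counts 2 were higher (32.9% of all genes) and the lower call was lost. The lower gene was Rps15, which is needed for export of the subunit from the nucleus. Its window at chr10:79755521-79755570, plus strand, exon 2 of mm9 differs by the base in capitals from a copy outside annotated genes (chr10:116410212-116410261, minus strand).
Rps15: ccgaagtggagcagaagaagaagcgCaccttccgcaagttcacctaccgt
nearest copy of Rps15: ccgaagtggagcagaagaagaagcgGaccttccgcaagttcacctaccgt
Normalized counts of Rps15 were 152, 129.6 and 114 in control and 74.5, 96.4 and 106 in Rnf40ΔSC libraries. All Rnf40ΔSC libraries were below the control libraries, by a narrow margin between Rnf40ΔSC library 3 and control library 3. It was called lower (log2 fold change -0.50 ± 0.15 (SE), adjusted p = 0.0104, edgeR's quasi-likelihood test, Benjamini-Hochberg). The call was lost without control library 1 (adjusted p = 0.0751 in edgeR's test with Benjamini-Hochberg) or Rnf40ΔSC library 1 (0.120), by DESeq2 (0.0509), and under total counts (0.243), where the groups overlapped and the log2 fold change was -0.23, within a range of 0.00162 to 0.243. Rps24, another gene of Diamond-Blackfan anaemia, had raw counts of 8, 2 and 9 in control and 36, 7 and 20 in Rnf40ΔSC libraries. The groups overlapped in normalized counts. Rps24 passed the filter minimum in all Rnf40ΔSC libraries but not in all control libraries. The log2 fold change of 1.39 ± 0.48 (SE) was called (adjusted p = 0.0298, edgeR's quasi-likelihood test, Benjamini-Hochberg), but not without control library 2 (adjusted p = 0.166 in edgeR's test with Benjamini-Hochberg), control library 3 (0.112) or Rnf40ΔSC library 1 (0.271), nor by DESeq2 (0.0955), nor under scaling by the genes' own sum (0.0591), within a range of 0.00504 to 0.271.

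Rps26, which contacts the mRNA at the exit channel, came after Rpl39 in level per kilobase (1405, against 728 for Rpl4). Its normalized counts were 479.6, 422 and 538 in control and 508, 538 and 448 in Rnf40ΔSC libraries. The groups overlapped, and its log2 fold change was 0.05 ± 0.10 (SE) (adjusted p = 0.753, edgeR's quasi-likelihood test, Benjamini-Hochberg). Under total counts it was called higher, at 0.31 (0.0132 from the same edgeR test, Benjamini-Hochberg; range 0.0132 to 0.990), close to the shift of all genes. Rps3, at the mRNA entry channel and named after its values were seen, had normalized counts of 305, 260.4 and 253 in control and 298, 316 and 298 in Rnf40ΔSC libraries and a log2 fold change of 0.16 ± 0.10 (SE) (adjusted p = 0.233, edgeR's quasi-likelihood test, Benjamini-Hochberg). Rps3 was called higher under total counts too, at 0.43 with the groups apart (0.00125, edgeR's test, Benjamini-Hochberg; range 0.00125 to 0.846). Rps9 and Rps18, of the body and the head, had lower values without a call. Their log2 fold changes were -0.34 ± 0.17 (SE) and -0.36 ± 0.39 (SE) (adjusted p = 0.140 and 0.517, edgeR's quasi-likelihood test, Benjamini-Hochberg), and Rps9 was called under scaling by the genes' own sum (0.0262; range 0.0262 to 0.774).

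**Figure D5:**
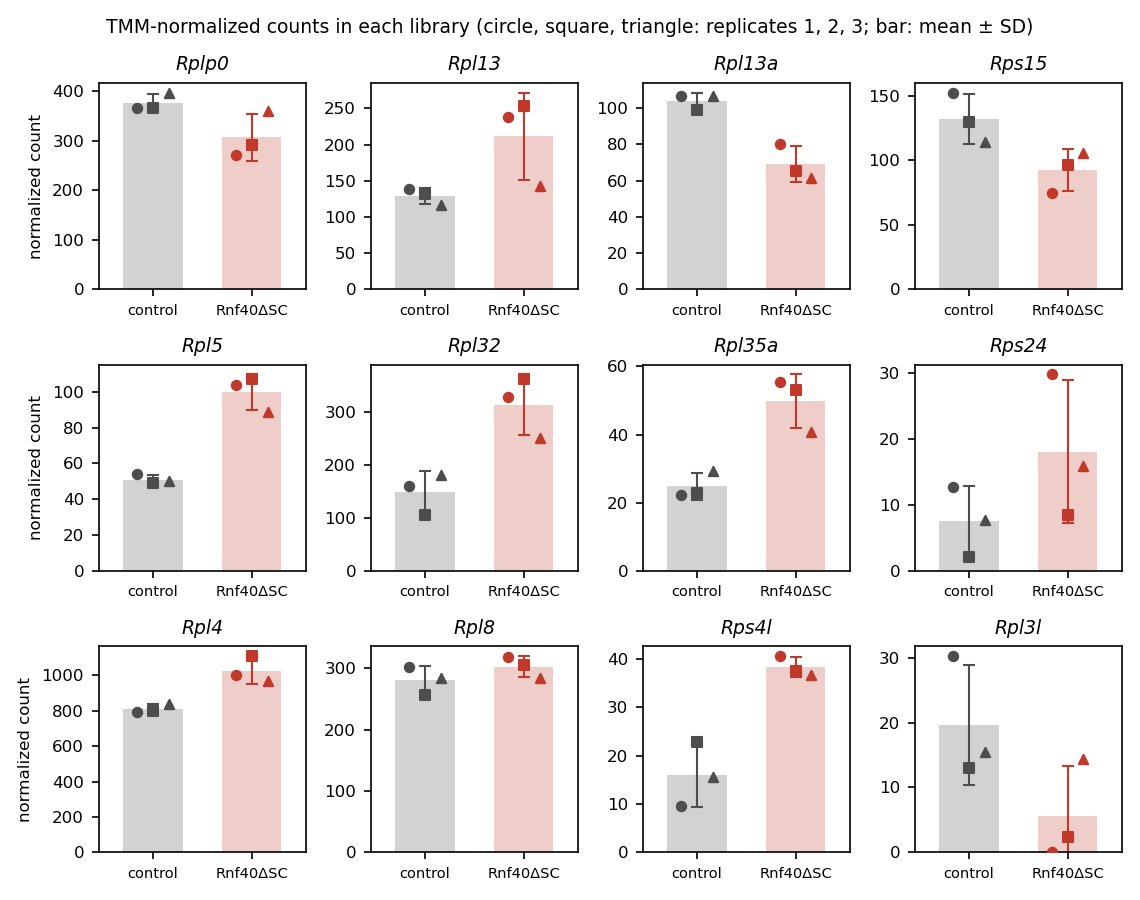
TMM-normalized counts of 12 ribosomal protein genes in each of the 3 control and 3 Rnf40ΔSC libraries (symbols), with bars for the mean and SD. The groups were apart for Rpl5, Rpl32, Rpl35a and Rps4l, which were higher under both scalings, and overlapped for Rps24, Rpl8 and, through Rnf40ΔSC library 3, Rpl3l.

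Paralogs with tissue-restricted or stress-related expression can take the place of the common protein. Rps4l, an autosomal relative of the X-linked Rps4x, had raw counts of 6, 21 and 18 in control and 49, 31 and 46 in Rnf40ΔSC libraries, with 82.0% of its coding windows at 1 place. In normalized counts every Rnf40ΔSC library was above every control library. Means were 15.97 ± 6.69 in control and 38.2 ± 2.07 in Rnf40ΔSC nerves (SD, n = 3 each) (log2 fold change 1.21 ± 0.28 (SE), adjusted p = 0.000863, edgeR's quasi-likelihood test, adjusted by Benjamini-Hochberg), and the call held under every alternative that kept the gene (range 5.82e-05 to 0.0124). Rps4l passed the filter minimum in all Rnf40ΔSC libraries, in which it was high, but not in all control libraries. It was also called without the filter on low counts (0.000221, edgeR's test, Benjamini-Hochberg). Rps27l, a p53-induced relative of Rps27, had normalized counts of 118, 147 and 136 in control and 201, 272 and 119 in Rnf40ΔSC libraries. Rnf40ΔSC libraries 1 and 2 were above the control range and Rnf40ΔSC library 3 was within it. It was not called (log2 fold change 0.52 ± 0.35 (SE), adjusted p = 0.347, edgeR's quasi-likelihood test, Benjamini-Hochberg), but it was without Rnf40ΔSC library 3 (2.63e-06; range 2.63e-06 to 0.540). Rpl3l, which replaces Rpl3 in skeletal muscle and heart, had raw counts of 19, 12 and 18 in control and 0, 2 and 18 in Rnf40ΔSC libraries. Rnf40ΔSC library 3 was in the control range and the other Rnf40ΔSC libraries had at most 2 reads. Its log2 fold change was -1.61 ± 0.94 (SE) (adjusted p = 0.266, edgeR's quasi-likelihood test, Benjamini-Hochberg), and -4.05 without Rnf40ΔSC library 3 (2.31e-05), where it was called. It was also called without the filter on low counts (0.00284; range 2.31e-05 to 0.462). The summed muscle markers given above followed the same order of libraries as Rpl3l within the Rnf40ΔSC group, and their part in it was not tested. The testis paralogs Rpl10l and Rpl39l had 0 counts in every library and raw counts of 2, 0 and 0 in control and 1, 0 and 0 in Rnf40ΔSC libraries, respectively.

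Other genes of the ribosome and of translation were taken as lists. Of 72 mitochondrial ribosomal protein genes tested (77 in the tables), 10 were higher under TMM (15.5% of all genes) and 33 under total counts (32.9% of all genes; edgeR's quasi-likelihood test, adjusted by Benjamini-Hochberg). DESeq2 called 6 higher (10.3% of all genes), and under the cytosolic genes' own sum 4 were higher and 1 lower (all genes, 6.48% and 23.8%). The list had a median log2 fold change of 0.25 under TMM, which was 0.04 when libraries were scaled by the summed counts of the cytosolic genes (all genes, -0.204). Mrpl32 had raw counts of 15, 16 and 30 in control and 53, 51 and 57 in Rnf40ΔSC libraries (log2 fold change 1.14 ± 0.24 (SE), adjusted p = 0.000350) and Mrpl47 had raw counts of 6, 11 and 7 in control and 20, 21 and 15 in Rnf40ΔSC libraries (0.95 ± 0.40 (SE), adjusted p = 0.0677, edgeR's quasi-likelihood test, Benjamini-Hochberg). Mrpl47 was called under total counts and without Rnf40ΔSC library 3 (log2 fold changes from 0.66 to 1.22 over the alternatives). It passed the filter minimum in all Rnf40ΔSC libraries but not in control libraries 1 and 3. Without Rnf40ΔSC library 1, 6 of the mitochondrial genes were higher, in a fit for which the number over all genes is not given here. Of 3 subunit proteins outside the symbol rule that were tested, 0 were called by edgeR or DESeq2 and 0 were higher at an unadjusted p of 0.05, while 2 were higher under total counts. Of all genes, 15.5% were higher in edgeR under TMM, 10.3% by DESeq2 and 32.9% under total counts. Gnb2l1, the scaffold Rack1 on the small subunit, had a log2 fold change of 0.19 ± 0.10 (SE) (adjusted p = 0.131) and Rps3a1 of 0.18 ± 0.43 (SE) (adjusted p = 0.795, edgeR's quasi-likelihood test, Benjamini-Hochberg). Both values were slightly negative when libraries were scaled by the summed counts of the ribosomal protein genes, under which the median of all genes was -0.204.

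Of 53 ribosome biogenesis genes tested, 11 were higher under TMM (15.5% of all genes) and 27 under total counts (32.9% of all genes), with a median of 0.26 under TMM. DESeq2 called 6 higher (10.3% of all genes), and under the ribosomal protein genes' own sum 6 were higher and 3 lower (all genes, 6.48% and 23.8%). Polr1d, a subunit shared by RNA polymerases I and III, was 1.32 ± 0.24 (SE) (adjusted p = 3.14e-05, edgeR's quasi-likelihood test, Benjamini-Hochberg), and the subunit-joining inhibitor Eif6 was 1.04 ± 0.26 (SE) (adjusted p = 0.00208, same edgeR test, Benjamini-Hochberg). The Eif6 call was lost without Rnf40ΔSC library 1 (log2 fold changes from 0.73 to 1.303 over the alternatives). The biogenesis count was 7 without Rnf40ΔSC library 2. Of 33 initiation factor genes tested, 12 were higher and 2 lower under TMM (all genes, 15.5% and 16.2%), 25 and 1 under total counts (all genes, 32.9% and 7.79%), 1 and 5 under the genes' own sum (all genes, 6.48% and 23.8%), and 6 and 1 by DESeq2 (all genes, 10.3% and 11.3%). Eif4h, a helper of the mRNA helicase, had a log2 fold change of 0.72 ± 0.10 (SE) and Eif3m of 0.67 ± 0.18 (SE) (adjusted p = 3.36e-07 and 0.00445, edgeR's quasi-likelihood test, Benjamini-Hochberg). The Eif3m call was lost without control library 3 and under the genes' own sum (log2 fold changes from 0.46 to 0.94). The number of higher initiation genes was 7 without control library 1 or control library 2 and 6 without Rnf40ΔSC library 1, and the number of lower ones was 1 without control library 3. Numbers over all genes are not given here for these fits, nor for the biogenesis count without Rnf40ΔSC library 2. Of 8 elongation factor genes tested, 1 was higher and 1 lower under TMM (all genes, 15.5% and 16.2%) and 2 and 1 under total counts (all genes, 32.9% and 7.79%). The lower gene was Eef1a1, which delivers aminoacyl-tRNA and whose mRNA is a TOP mRNA, with raw counts of 451, 628 and 781 in control and 543, 397 and 634 in Rnf40ΔSC libraries. Its log2 fold change was -0.53 ± 0.09 (SE) (adjusted p = 2.07e-05, edgeR's quasi-likelihood test, Benjamini-Hochberg). Eef1a2, its form in muscle and neurons, had raw counts of 49, 75 and 72 in control and 11, 9 and 80 in Rnf40ΔSC libraries and a log2 fold change of -1.30 ± 0.78 (SE) (adjusted p = 0.304, edgeR's quasi-likelihood test, Benjamini-Hochberg), and it was high in Rnf40ΔSC library 3, the library with the most muscle RNA of its group. Eef1a2 was called lower without Rnf40ΔSC library 3 (log2 fold changes from -2.87 to -0.83 over the alternatives). Without Rnf40ΔSC library 3, 3 elongation genes were lower, while over all genes 1975 were lower in that fit and 1841 with all libraries. Without control library 1 or Rnf40ΔSC library 1 the number of higher elongation genes was 0 (edgeR), as it was by DESeq2, against 1 at an unadjusted p of 0.05 over all libraries. Of all 11371 genes tested, 10.3% were higher by DESeq2 and 2306 genes at that unadjusted p.

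A list of 15 genes joined regulators of TOP mRNAs with the transcription factors Myc, Mycn and Max. Of these, 2 were higher under TMM, among them Mycn (15.5% of all genes), and 7 under total counts (32.9% of all genes). Under RLE scaling, or with at least 10 counts required in every library, 4 were higher, but numbers over all genes are not given here for those fits. Under the genes' own sum 1 was higher and 2 lower (all genes, 6.48% and 23.8%). Mycn, a transcription factor that drives ribosomal protein genes, had raw counts of 6, 22 and 13 in control and 35, 33 and 43 in Rnf40ΔSC libraries and a log2 fold change of 1.16 ± 0.31 (SE) (adjusted p = 0.00329, edgeR's quasi-likelihood test, Benjamini-Hochberg), and Eif4ebp1, the translation repressor that mTORC1 inactivates, had -0.54 ± 0.27 (SE) (adjusted p = 0.135, edgeR's quasi-likelihood test, Benjamini-Hochberg). Mycn passed the filter minimum in all Rnf40ΔSC libraries, in which it was high, but not in control library 1. The Mycn call was lost without control library 3 (log2 fold changes from 0.93 to 1.67), and Eif4ebp1 was called lower under the genes' own sum (-0.73 to -0.27). The number of higher genes in this list was 1 without control library 3 and 5 without Rnf40ΔSC library 3. Over all genes, 1895 were higher without Rnf40ΔSC library 3, against 1757 with all libraries. Of 7 small nucleolar RNA host genes tested, 1 was higher under TMM (15.5% of all genes) and 3 under total counts (32.9% of all genes). The 1 was Snhg11, with raw counts of 12, 15 and 19 in control and 67, 51 and 76 in Rnf40ΔSC libraries (log2 fold change 1.79 ± 0.24 (SE), adjusted p = 1.67e-07, edgeR's quasi-likelihood test, Benjamini-Hochberg), and Snhg6 had 0.85 ± 0.38 (SE) (adjusted p = 0.0835, edgeR's quasi-likelihood test, Benjamini-Hochberg). Snhg6 was called under total counts and without Rnf40ΔSC library 2 or 3 (log2 fold changes from 0.40 to 1.13). It passed the filter minimum in all Rnf40ΔSC libraries but not in control library 1. The number of higher host genes was 2 without Rnf40ΔSC library 2 and 3 without Rnf40ΔSC library 3, and 1 host gene was lower without control library 3. Of 13 genes of ribosome quality control and recycling, 3 were higher under TMM (15.5% of all genes) and 8 under total counts (32.9% of all genes). Under the genes' own sum edgeR called 0 higher (6.48% of all genes), while DESeq2 with its own size factors called 2 (10.3% of all genes). At an unadjusted p of 0.05 under TMM 4 were higher, as were 2306 of all 11371 genes tested. G3bp1, of stress granules, had 0.59 ± 0.14 (SE) and Pelo, which rescues stalled ribosomes, had 0.54 ± 0.23 (SE) (adjusted p = 0.000883 and 0.0724, edgeR's quasi-likelihood test, Benjamini-Hochberg). The G3bp1 call was lost under the genes' own sum (log2 fold changes from 0.39 to 0.86), and Pelo was called under total counts (0.34 to 0.81). No share of Mycn, TOP regulation or ribosome assembly in the ribosomal protein values was tested.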

How the data were processed

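Reads had been aligned to mm9 with TopHat by the authors, who counted the uniquely mapped ones per gene with HTSeq and deposited raw counts, which are whole numbers without normalization. The gene annotation and strand setting were not given in the sources used here, and the labels list mm10 beside mm9. Genotypes were compared with edgeR 4.0.16 in R 4.3.3 (filterByExpr, TMM, robust quasi-likelihood fit, genotype as the only term) on all 11371 genes that passed, with Benjamini-Hochberg adjustment over all of them, and the code was tested on simulated data. Alternatives were total-count and RLE scaling, scaling by the summed counts of the 81 genes, DESeq2 1.42.0, other filters, the replicate number as a block and each library left out. Copies were found with BLAST+ 2.17.0 and windows looked up in Python 3.11.15. Chosen for naming were the stalk genes, paralogs, Rpl5, Rpl11, the 6 highest and 6 lowest fold changes, the 4 highest levels per kilobase (both without the paralogs), genes past the study's limits, 2 genes of each other list, Rnf40 and Rnf20. Some of the chosen genes are not reported here. The genes and lists were chosen with earlier results of these data known.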

Additional observations from a re-analysis of the deposited data

How the results depend on the processing

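Total-count scaling gave 19 higher, 0 lower and 8 genes past the limits and a median of 0.38. Scaling by the genes' own sum gave 7, 5 and 3 and a median of -0.094, against 6.48% higher, 23.8% lower and a median of -0.204 over all genes, and it centres the genes themselves. DESeq2 gave 2 lower. Without the filter the median was 0.17. With 1 library left out, higher genes numbered 7 to 15, lower genes 2 to 5, genes past the limits 4 to 9, and the median ran from 0.084 to 0.15. Of these fits, calls over all genes are given here only without Rnf40ΔSC library 3 (1895 higher and 1975 lower). Counts from the other left-out fits, for the lists too, therefore cannot be set against all genes. In alternatives chosen after seeing the data, of 13 tested genes with at least 50% of coding windows at 1 place 3 were higher, 3 lower and 1 past the limits, with a median of 0.113, and of 27 other tested genes 8 were higher and 1 lower, with a median of 0.14 (all genes, 15.5% higher and 16.2% lower). Under total counts 7 of the 13 and 12 of the 27 were higher (32.9% of all genes), and their lower calls were lost. The 33 genes past the filter minimum in all libraries gave 8 higher, 4 lower and 4 past the limits, and a median of 0.049. The share of counts was 0.340% in control and 0.428% in Rnf40ΔSC libraries without the 10 most abundant genes, and 0.340% in control without genes past the limits, 5 of them ribosomal protein genes. The cause of these differences was not tested. The replicate block gave 11 higher, 4 lower, 4 past the limits and a median of 0.11. It ended the Rpl32 call (adjusted p = 0.118) and added Rpl39 (0.0123, edgeR's test, Benjamini-Hochberg). Equal numbers did not pair the libraries (correlations -0.0949, -0.0152 and -0.0618). For the genes chosen for naming, 725 values kept direction and side of the threshold, 36 lost and 23 gained a call, 9 without a call changed sign, and no call reversed. A read stood for 0.405 to 0.759 CPM, so the 40 genes that failed the filter have no usable estimate. Only uniquely mapped reads were counted, and the number of reads left out because they matched several places was not measured.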

Other observations

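Markers of further cell types in the nerve were mostly lower in Rnf40ΔSC libraries under TMM. Of the markers tested, 3 of 4 for perineurium, 5 of 8 for endothelium, 4 of 6 for pericytes and smooth muscle, 6 of 9 for macrophages and 3 of 6 for adipocytes were lower, and under total counts 2, 1, 2, 2 and 2 were (all genes, 16.2% and 7.79%). The macrophage markers thus ran against the paper's staining at this age, which showed more macrophages in Rnf40ΔSC nerves. Itgb4, an integrin of perineurial and Schwann cells, had a log2 fold change of -1.69 ± 0.10 (SE), the endothelial tight junction gene Cldn5 -1.12 ± 0.28 (SE), the pericyte receptor Pdgfrb -0.65 ± 0.10 (SE), the macrophage receptor Csf1r -0.63 ± 0.13 (SE) and the fat droplet gene Plin1 -1.31 ± 0.26 (SE). Of the 7 markers of cycling cells that were tested, 2 were higher (15.5% of all genes) and 4 under total counts (32.9% of all genes), and the calls of Top2a and Mki67 were lost under scaling by the ribosomal protein genes' sum. Top2a had raw counts of 28, 56 and 55 in control and 86, 74 and 103 in Rnf40ΔSC libraries and Mki67 raw counts of 57, 73 and 122 in control and 161, 96 and 224 in Rnf40ΔSC libraries. Of 3 neuronal markers tested, Snap25 was higher, with raw counts of 3, 6 and 8 in control and 23, 13 and 23 in Rnf40ΔSC libraries. Snap25 passed the filter minimum through the Rnf40ΔSC libraries alone, in which it was high. Stmn2, the most abundant of the neuronal markers, had raw counts of 10, 18 and 26 in control and 22, 4 and 14 in Rnf40ΔSC libraries and a log2 fold change of -0.72 ± 0.37 (SE) without a call, and it was called lower without Rnf40ΔSC library 1 (-1.19 to -0.42 over the alternatives). Stmn2 passed the minimum in all control libraries but not in Rnf40ΔSC library 2. Nefm had 0.34 ± 0.44 (SE) and was not called. None of 6 lymphocyte markers had enough reads to be tested, and of 8 erythroid markers only Alas2 had, with raw counts of 27, 27 and 32 in control and 12, 14 and 42 in Rnf40ΔSC libraries and no call (it was called lower without Rnf40ΔSC library 3, with log2 fold changes from -1.30 to -0.28 over the alternatives), while all 6 globin genes had 0 counts in every library.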
